A study of Mus musculus with 2 samples.

Results

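The genes that make, sense, carry and export cholesterol were examined in effector regulatory T cells lacking neuritin. They are 33 named genes, found by symbol in the deposited expression files, each on 1 row, out of 46398 distinct symbols. Poly(A) RNA was sequenced in 1 library per genotype, Nrn1-/- and Nrn1+/-. Nrn1 encodes neuritin, a small surface protein held by a lipid anchor and first described in neurons. Both genotypes were on a C57BL/6 strain carrying Foxp3DTRgfp, an allele that places green fluorescent protein and a toxin receptor under Foxp3, the defining transcription factor of regulatory T cells. Sorting took cells that were CD4+ and CD25+, low for CD62L, high for CD44 and positive for the Foxp3 reporter. The control library is titled wild type but its genotype label reads Nrn1+/-, so null is set against heterozygous throughout. The labels give neither the number of mice behind a library nor their age.

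Cells build cholesterol from acetyl-CoA through mevalonate, isoprenoid units and squalene, and the same isoprenoids also anchor proteins to membranes. When sterol in the endoplasmic reticulum runs low, SCAP escorts SREBP2 to the Golgi, where it is cleaved and becomes a transcription factor for the synthesis and uptake genes, while INSIG proteins hold it back when sterol is plentiful. When sterol is in excess, its oxidised derivatives activate the liver X receptors (LXR), which induce the exporters ABCA1 and ABCG1 and the ligase MYLIP, which removes lipoprotein receptors from the cell surface. Activated, dividing T cells are known to raise the SREBP2 arm and to lower the LXR arm.

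Levels are in FPKM, the fragments on each kilobase of a transcript relative to library size. With 1 library per genotype there is no spread between animals to compare with, so no p-value is given and each difference describes these 2 libraries. Nrn1 itself stood at 4.62 FPKM in Nrn1-/- cells and 66.5 FPKM in Nrn1+/- cells. From the spacing of low values, 1 fragment on 1 kb was worth 0.025 FPKM in Nrn1-/- cells and 0.0192 FPKM in Nrn1+/- cells. By these steps the members above 1 FPKM on average rested on 319 to 17526 fragments per library. Intervals below are 95% exact intervals of the FPKM ratio, Nrn1-/- over Nrn1+/-. They cover counting error only and say nothing of how mice differ, and without molecular identifiers several fragments can stem from 1 molecule. At this depth most genes have an interval that leaves out 1: of 10650 protein-coding genes averaging at least 1 FPKM, 42.6% had theirs above 1 and 33.9% below, so that alone sets no member apart. Of 8 T cell and regulatory T cell markers, all were well expressed in both libraries, with Foxp3 at 195 FPKM in Nrn1-/- cells and 257 FPKM in Nrn1+/- cells and Il2ra, the gene of CD25, at 564 and 601 FPKM.

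Promoters of 3 synthesis genes with high ratios and of the exporter gene Abca1 are shown first, because the members divide by which regulator is known to drive them. The 3 are examples and not the genes with the highest ratios. Acat2, whose ratio was highest at 1.85 though uncertain, is not shown, and its promoter held no CCAAT. The sequences are RefSeq promoters (GRCm38.p6), 250 bases before to 50 bases after the annotated start, written along each gene's own strand. Capitals mark CCAAT, the core bound by NF-Y, a known partner of SREBP2, and TCACNCCAC, a form of the sterol regulatory element, with up to 1 mismatch. Both strands were searched, so CCAAT on the other strand reads ATTGG. The Hmgcs1 promoter is chr13:119690101-119690400 on the plus strand and the Idi1 promoter chr13:8885356-8885655 on the plus strand. The Cyp51 promoter is chr5:4104648-4104947 and the Abca1 promoter chr4:53159846-53160145, both on the minus strand.
Hmgcs1: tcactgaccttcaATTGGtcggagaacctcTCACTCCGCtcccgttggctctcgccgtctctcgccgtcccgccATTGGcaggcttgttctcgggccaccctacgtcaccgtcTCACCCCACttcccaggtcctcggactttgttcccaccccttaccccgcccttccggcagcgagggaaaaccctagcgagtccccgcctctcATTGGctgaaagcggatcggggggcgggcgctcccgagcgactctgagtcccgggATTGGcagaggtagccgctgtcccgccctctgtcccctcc
Idi1: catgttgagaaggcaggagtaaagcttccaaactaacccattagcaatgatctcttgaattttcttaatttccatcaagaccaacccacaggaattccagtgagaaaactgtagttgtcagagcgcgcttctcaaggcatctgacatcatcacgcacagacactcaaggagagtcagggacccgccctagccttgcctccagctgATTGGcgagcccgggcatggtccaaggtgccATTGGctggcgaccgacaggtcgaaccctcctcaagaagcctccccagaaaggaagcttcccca
Cyp51: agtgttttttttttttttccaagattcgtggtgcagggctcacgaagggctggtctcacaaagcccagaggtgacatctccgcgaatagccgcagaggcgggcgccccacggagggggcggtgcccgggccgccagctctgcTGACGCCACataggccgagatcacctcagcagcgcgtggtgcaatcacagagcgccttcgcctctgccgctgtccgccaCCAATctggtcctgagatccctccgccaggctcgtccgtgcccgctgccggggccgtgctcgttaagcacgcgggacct
Abca1: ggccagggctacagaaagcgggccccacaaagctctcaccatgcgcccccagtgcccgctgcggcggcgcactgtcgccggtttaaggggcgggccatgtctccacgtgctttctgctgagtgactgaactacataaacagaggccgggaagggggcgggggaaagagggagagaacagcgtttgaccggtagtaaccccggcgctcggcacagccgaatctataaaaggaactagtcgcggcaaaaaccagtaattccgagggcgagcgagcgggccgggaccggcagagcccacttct

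The Hmgcs1 window held 4 CCAAT cores and the exact sterol element TCACCCCAC, starting 137 bases before the start site. The Idi1 window held 2 CCAAT cores and no sterol element in this form. Cyp51 had 1 CCAAT core and 1 sterol element with a mismatch, and Abca1 had neither. Promoters were found for 27 of the 33 genes. Among the 21 genes counted here as SREBP2 targets, 17 had entries, with 20 promoters in all. CCAAT was present in 16 of those 20 promoters, against 37.4% of all 32851 promoters of this length. The exact sterol element was in 1 of the 20, the Hmgcs1 promoter shown above, against 1.24% of all promoters. With up to 1 mismatch, a search added after that result was seen, it was in 8 of the 20, against 24.2%. The Sp1 core GGGCGG was in 16 of the 20, against 35.7% of all promoters. Promoters of expressed protein-coding genes, of which 76.9% had an entry, are the closer comparison, and 63.5% of them held GGGCGG. By gene it was in 15 of 17 SREBP2 targets and in 70.3% of expressed coding genes with an entry. The share with CCAAT was 38.1% in those promoters, about that of all promoters. Among LXR targets, an LXR element of AGGTCA repeated after a gap of 4 bases, with up to 3 mismatches, was in 2 of 7 promoters, those of Abca1 and Srebf1. It was in 7 of the 20 SREBP2 target promoters and in 21.9% of all, so in this form it did not single out the LXR targets. A match is a stretch of letters and does not show that a factor binds there.

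SREBP2 target genes stood higher in the Nrn1-/- library than in the Nrn1+/- library. All 21 had a mean of at least 1 FPKM, 19 of them were higher, and 9 were at least 1.5-fold higher. Among all 12344 genes with that mean, 52.3% were higher and 7.5% were at least 1.5-fold higher, and among the 10695 of them that code for protein 54.3% and 7.01%. These counts use log2((Nrn1-/- + 1)/(Nrn1+/- + 1)), a scale that understates differences of low genes. The median of this log2 ratio was 0.47 over the SREBP2 targets and 0.02 over all genes tested. The 9 genes were Acat2, Hmgcs1, Pmvk, Idi1, Fdps, Sqle, Lss, Cyp51 and Stard4. None of the 21 reached 2-fold, which 1.98% of all genes did in this direction. In bulk RNA, more cells with the program and more of these messenger RNAs per cell cannot be told apart. The count of genes at least 1.5-fold higher depended on scaling: it was 6 when the libraries were given equal sums of protein-coding values and 0 when each was rescaled to a sum of 1000000. That rescaling shifted the median gene's log2 ratio by -0.28, and 17 of the 21 genes were still higher after it. Summed FPKM was 1.23-fold higher in Nrn1-/- cells over all genes tested and 1.09-fold higher over protein-coding ones. The highest value was 71090.6 FPKM over all genes tested and 6914.57 FPKM over protein-coding ones. Genes that do not code for protein thus weigh heavily in the rescaling to a sum of 1000000. Against the median of all genes the SREBP2 targets kept a distance of 0.45 either way. This follows from a scaling that shifts nearly all genes alike, and adds no support.

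**Figure D1:**
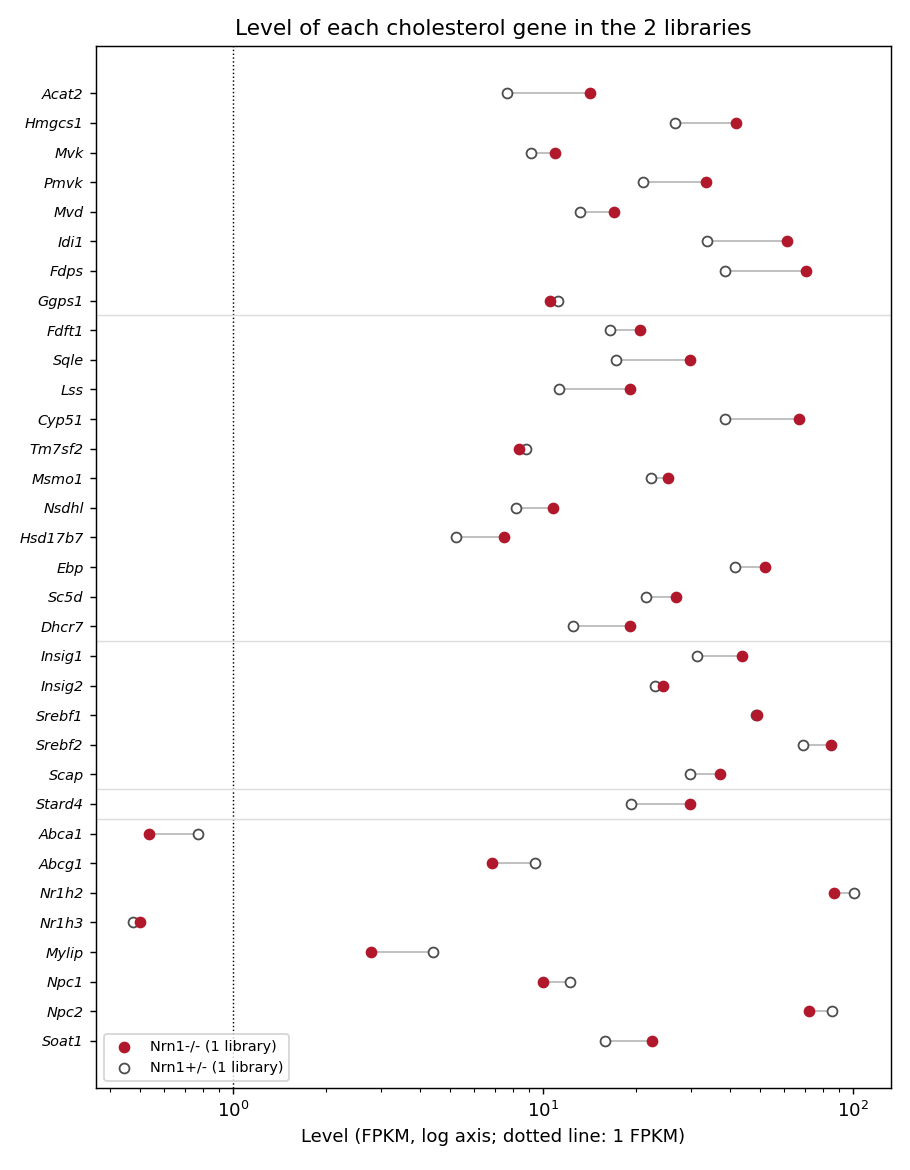
Level of each of the 33 genes in FPKM on a log axis, filled points for the Nrn1-/- library and open points for the Nrn1+/- library, 1 library each, in pathway order from Acat2 at the top to Soat1. Most synthesis genes have the filled point to the right. Abca1 and Nr1h3 lie below 1 FPKM, and the open point of Srebf1 is hidden behind the filled point.

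The mevalonate and isoprenoid arm carried the largest differences, with 7 of 8 genes higher (6 of 8 at a sum of 1000000). Over all genes, 52.3% were higher as deposited. The arm's median log2 ratio was 0.64. Its 8 genes summed to 259 FPKM in Nrn1-/- cells and 161 FPKM in Nrn1+/- cells, a ratio of 1.61. Fdps, the synthase of farnesyl diphosphate (ENSMUSG00000059743.11, GRCm38 chromosome 3, 89093588 to 89101959, minus strand), stood at 70.3 FPKM in Nrn1-/- cells and 38.7 FPKM in Nrn1+/- cells. That is a ratio of 1.82 with a counting interval of 1.72 to 1.92. Idi1, the isomerase that sets up isoprenoid condensation (chromosome 13, 8885501 to 8892451, plus strand), stood at 61.2 FPKM in Nrn1-/- cells and 33.9 FPKM in Nrn1+/- cells, a ratio of 1.81 (1.74 to 1.87). Both lie near percentile 97 of all genes tested, at 96.97 for Fdps and 96.88 for Idi1.

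At the entry to the pathway, Hmgcs1, the synthase that makes HMG-CoA (chromosome 13, 119690379 to 119708260, plus strand), was at 41.7 FPKM in Nrn1-/- cells and 26.7 FPKM in Nrn1+/- cells. Its ratio was 1.56 (1.501 to 1.63). Acat2, the cytosolic thiolase that joins acetyl-CoA units, was at 14.2 FPKM in Nrn1-/- cells and 7.65 FPKM in Nrn1+/- cells, the highest ratio of the 33 genes at 1.85 (1.69 to 2.03). Its value is uncertain, because its transcript matches that of its neighbour Acat3 at 97.7% identity over 1477 bases and that of Tcp1 over 445 bases. Acat3 stood at 18.7 FPKM in Nrn1-/- cells and 11.7 FPKM in Nrn1+/- cells, and Tcp1 at 417 and 288 FPKM. All 3 transcripts ran in 1 direction, but since they may share reads this says nothing of the ratio of Acat2 itself.

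The 3 kinase and decarboxylase steps between these enzymes were uneven. Pmvk, phosphomevalonate kinase, was at 33.6 FPKM in Nrn1-/- cells and 21.01 FPKM in Nrn1+/- cells, a ratio of 1.60 (1.47 to 1.73). Mvd, the decarboxylase that yields isopentenyl diphosphate, was at 17.0 FPKM in Nrn1-/- cells and 13.2 FPKM in Nrn1+/- cells, a ratio of 1.29. Mvk, mevalonate kinase, was at 10.9 FPKM in Nrn1-/- cells and 9.17 FPKM in Nrn1+/- cells, and its log2 ratio of 0.23 became -0.04 at a sum of 1000000.

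Ggps1 stood apart from its arm. It encodes the synthase of geranylgeranyl diphosphate, which leaves the sterol route for protein prenylation. Its level was 10.6 FPKM in Nrn1-/- cells and 11.2 FPKM in Nrn1+/- cells, a ratio of 0.946 whose counting interval, 0.888 to 1.01, includes 1. It shares 257 exonic bases on the opposite strand with Arid4b, which was at 26.3 FPKM in Nrn1-/- cells and 41.7 FPKM in Nrn1+/- cells, and the labels do not say whether strand was kept.

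The sterol arm, from the making of squalene onward, had 10 of 11 genes higher (9 of 11 at a sum of 1000000). The share over all genes was 52.3% as deposited. This arm's median log2 ratio was 0.36. Its summed level was 286 FPKM in Nrn1-/- cells and 204 FPKM in Nrn1+/- cells, a ratio of 1.40. The genes at least 1.5-fold higher were the 3 consecutive steps from squalene to the first demethylation. Sqle, the squalene epoxidase that is a control point of the pathway, was at 29.9 FPKM in Nrn1-/- cells and 17.2 FPKM in Nrn1+/- cells, a ratio of 1.74 (1.65 to 1.84). Lss, which folds the epoxide into lanosterol, was at 19.03 FPKM in Nrn1-/- cells and 11.3 FPKM in Nrn1+/- cells, a ratio of 1.69 (1.60 to 1.77). Cyp51, the lanosterol demethylase (chromosome 5, 4081145 to 4104746, minus strand), was at 66.7 FPKM in Nrn1-/- cells and 38.7 FPKM in Nrn1+/- cells, a ratio of 1.72 (1.67 to 1.78).

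Steps after Cyp51 differed less. Dhcr7, a late reductase, was closest to the threshold from below, at 18.9999 FPKM in Nrn1-/- cells and 12.5 FPKM in Nrn1+/- cells, a ratio of 1.52 that is a log2 ratio of 0.57 with the pseudocount. Hsd17b7, a keto-reductase of the demethylation complex, was at 7.498 FPKM in Nrn1-/- cells and 5.25 FPKM in Nrn1+/- cells, and Nsdhl, the dehydrogenase of that complex, at 10.7 and 8.17 FPKM. Msmo1, its oxidase, was at 25.3 FPKM in Nrn1-/- cells and 22.3 FPKM in Nrn1+/- cells, and its log2 ratio of 0.17 became -0.11 at a sum of 1000000. So the 3 enzymes of 1 complex had ratios of 1.43, 1.31 and 1.13.

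Ebp, the sterol isomerase, was at 51.8 FPKM in Nrn1-/- cells and 41.6 FPKM in Nrn1+/- cells, and Sc5d, the desaturase that follows it, at 26.8 and 21.4 FPKM. Fdft1, the squalene synthase, was at 20.6 FPKM in Nrn1-/- cells and 16.4 FPKM in Nrn1+/- cells. These 3 ratios were close together, at 1.24, 1.25 and 1.26. Fdft1 shares 774 exonic bases on the opposite strand with the more abundant Ctsb, at 60.8 FPKM in Nrn1-/- cells and 50.04 FPKM in Nrn1+/- cells.

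Tm7sf2, a sterol reductase, was the sterol arm's lower gene, at 8.38 FPKM in Nrn1-/- cells and 8.80 FPKM in Nrn1+/- cells, and its interval of 0.839 to 1.08 includes 1. It shares 532 exonic bases with Vps51 on its own strand. Lbr, which encodes a nuclear envelope protein with the same reductase activity and is no member of the list, was named after its values were seen. It was at 75.7 FPKM in Nrn1-/- cells and 61.7 FPKM in Nrn1+/- cells, far above Tm7sf2 in both.

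**Figure D2:**
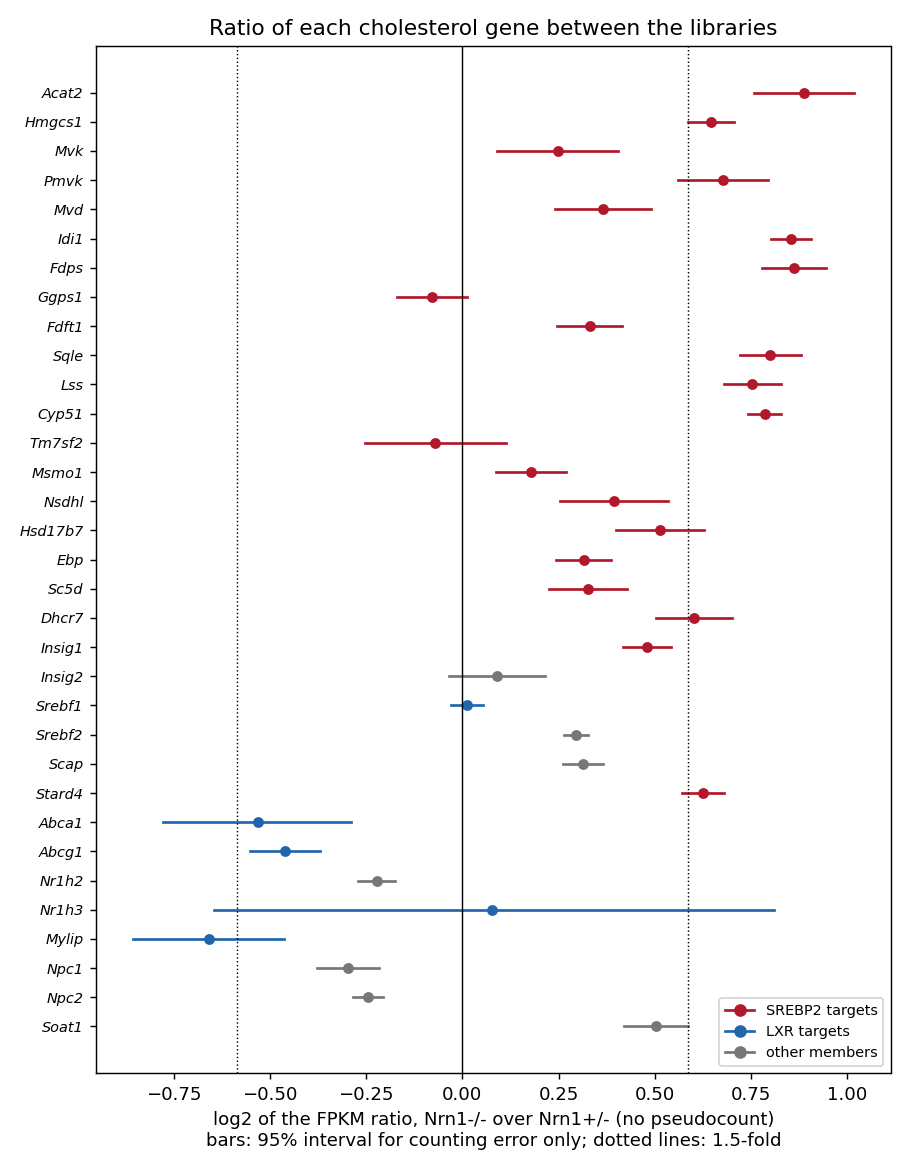
Ratio of each gene as log2 of Nrn1-/- over Nrn1+/- FPKM without a pseudocount, 1 library per genotype, with bars for the 95% interval of counting error, red for SREBP2 targets, blue for LXR targets and grey for other members. Of the 33 intervals 22 lie above a ratio of 1, 6 below it, and 5 include it, and they do not cover differences between mice. Among 10650 protein-coding genes averaging at least 1 FPKM, 42.6% have intervals above 1 and 33.9% below.

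Among the genes that sense sterol, those of the SREBP2 branch were the higher ones. Srebf2, which encodes SREBP2, was at 84.8 FPKM in Nrn1-/- cells and 69.1 FPKM in Nrn1+/- cells, a ratio of 1.23 (1.20 to 1.25). Scap, its escort, was at 37.1 FPKM in Nrn1-/- cells and 29.8 FPKM in Nrn1+/- cells, a ratio of 1.24 (1.20 to 1.29). After rescaling to a sum of 1000000 both log2 ratios were near 0, at 0.003 for Srebf2 and 0.021 for Scap. Srebf1, which encodes SREBP1 and is itself an LXR target, was at 49.01 FPKM in Nrn1-/- cells and 48.6 FPKM in Nrn1+/- cells. Its ratio was 1.01 (0.979 to 1.04), and its log2 ratio turned negative under other scalings, to -0.03 by upper quartile and to -0.28 when all values summed to 1000000. The files do not separate the transcripts that start at different Srebf1 promoters.

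The INSIG paralogs differed from each other. Insig1, which SREBP2 induces as a feedback brake, was at 43.7 FPKM in Nrn1-/- cells and 31.3 FPKM in Nrn1+/- cells, a ratio of 1.39 (1.34 to 1.46). Insig2, which is not known as an SREBP2 target in most cells, was at 24.4 FPKM in Nrn1-/- cells and 22.9 FPKM in Nrn1+/- cells, a ratio of 1.06 (0.977 to 1.16). These counting intervals do not overlap, but they do not cover differences between mice. Insig1 was the more abundant of the pair in both libraries. The log2 ratio of Insig2 was below 0 with equal sums of protein-coding values (-0.03) and at a sum of 1000000 (-0.20).

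The LXR targets among the 33 genes ran lower or level. LXR-induced genes outside the list, looked up after their values were seen, lay on both sides of 1. Lpcat3 was higher at a ratio of 1.25 (1.17 to 1.33), and Arl4c lower at 0.779 (0.734 to 0.825). Of the 5 listed targets, 3 had a mean of at least 1 FPKM. Of these 3, 2 were lower, none was at least 1.5-fold lower with the pseudocount, and their median log2 ratio was -0.41. Over all genes tested 47.7% were lower and 5.27% at least 1.5-fold lower, and over protein-coding genes 45.7% and 3.69%. This count too depended on the setting: at a sum of 1000000 all 3 were lower and 2 of them at least 1.5-fold lower, against 17.6% of all genes. With equal sums of protein-coding values 1 was at least 1.5-fold lower, against 8.84%, and with a pseudocount of 0.1 FPKM also 1, against 7.87%. With so few genes this list is best read gene by gene. Abcg1, an exporter that loads sterol onto lipoprotein particles (chromosome 17, 31057675 to 31117988, plus strand), was at 6.83 FPKM in Nrn1-/- cells and 9.40 FPKM in Nrn1+/- cells. Its ratio was 0.727 (0.683 to 0.774), at percentile 11.96 of all genes. Mylip (chromosome 13, 45389742 to 45412022, plus strand) was at 2.80 FPKM in Nrn1-/- cells and 4.41 FPKM in Nrn1+/- cells, the lowest ratio of the 33 at 0.633 (0.552 to 0.725). Its percentile among all genes was 7.26.

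Abca1, the other exporter, was barely detected, at 0.535 FPKM in Nrn1-/- cells and 0.773 FPKM in Nrn1+/- cells. Its transcript is long, so these levels still stood for 215 and 405 estimated fragments, and the ratio of 0.693 had an interval of 0.583 to 0.818. Srebf1, the third target above 1 FPKM, was level as given above. Nr1h3, which encodes LXR-alpha and is induced by LXR in some cells, was at 0.5003 FPKM in Nrn1-/- cells and 0.475 FPKM in Nrn1+/- cells, about 31 and 38 fragments, too few to tell a difference. Nr1h2, which encodes LXR-beta, was by contrast the most abundant member in both libraries, at 86.5 FPKM in Nrn1-/- cells and 100.9 FPKM in Nrn1+/- cells, a ratio of 0.857 (0.828 to 0.886). So these cells carried LXR almost wholly as the beta form at the RNA level.

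Macrophages express Abca1, Abcg1 and Nr1h3 strongly, so macrophage genes are given beside them. The 12 monocyte and macrophage markers summed to 6.28 FPKM in Nrn1-/- cells and 8.01 FPKM in Nrn1+/- cells, of which Cd68 alone gave 5.56 and 7.09 FPKM. The complement genes C1qa, C1qb and C1qc were listed at 0 in both libraries, and Lyz2 was at 0.448 FPKM in Nrn1-/- cells and 0.599 FPKM in Nrn1+/- cells. The 6 dendritic cell markers summed to 2.38 FPKM in Nrn1-/- cells and 2.96 FPKM in Nrn1+/- cells, with Clec9a and Siglech at 0. The 6 B cell markers summed to 7.46 FPKM in Nrn1-/- cells and 5.65 FPKM in Nrn1+/- cells. The part of such cells in the LXR target values was not tested.

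Set side by side, the median log2 ratio of the SREBP2 targets lay 0.88 above that of the 3 LXR targets. The LXR median is the value of a single gene, Abcg1, which lies between Mylip and Srebf1. It depends on which LXR genes are listed. Outside the list, the log2 ratio was 0.30 for Lpcat3 and -0.34 for Arl4c. Scaling the libraries differently shifts both lists alike, and under the 4 other scalings the distance was 0.86 to 0.89. It was 0.694 with a pseudocount of 5 FPKM and 0.674 when Abca1 and Nr1h3 were included. At a mean of at least 5 FPKM, where Abcg1 and Srebf1 were the LXR targets left, the distance was 0.665. The LXR targets also had lower levels than most SREBP2 targets, Srebf1 apart, which the plot of levels shows.

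**Figure D3:**
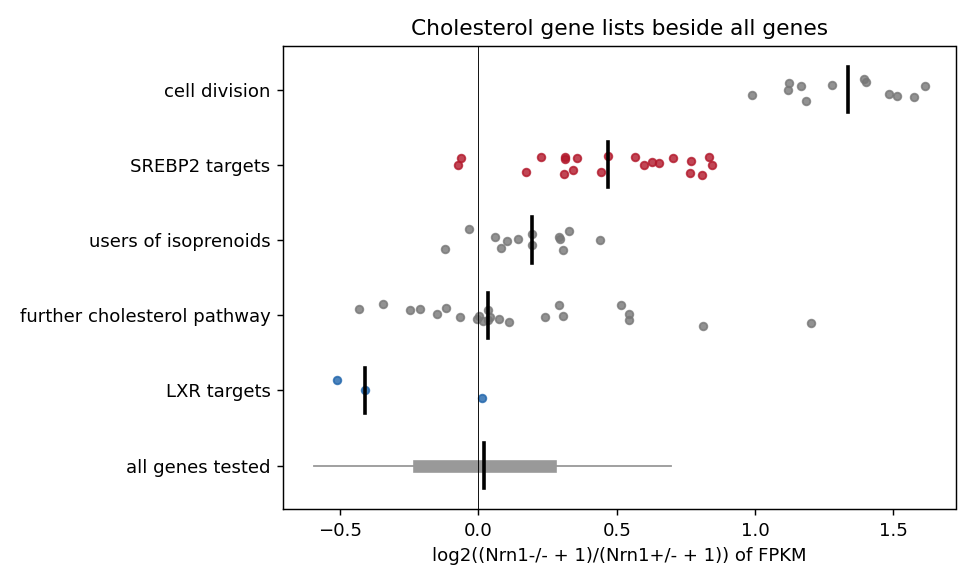
Log2 ratios, Nrn1-/- over Nrn1+/- with a pseudocount of 1 FPKM, of the genes of each list with a mean of at least 1 FPKM, 1 point a gene, beside all 12344 genes, whose thick bar spans the middle quartiles and thin bar percentiles 5 to 95. Black ticks are medians: 1.34 for cell division, 0.47 for SREBP2 targets, 0.19 for users of isoprenoids, 0.04 for further cholesterol genes, -0.41 for LXR targets and 0.02 for all genes.

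Genes that carry cholesterol inside the cell split by direction. Stard4, a soluble carrier induced by SREBP2, was at 29.7 FPKM in Nrn1-/- cells and 19.3 FPKM in Nrn1+/- cells, a ratio of 1.54 (1.48 to 1.60). Soat1, which esterifies cholesterol for storage, was at 22.5 FPKM in Nrn1-/- cells and 15.9 FPKM in Nrn1+/- cells, a ratio of 1.42 (1.34 to 1.501). The lysosomal genes lay the other way. Npc1, the membrane protein that passes cholesterol out of lysosomes, was at 9.98 FPKM in Nrn1-/- cells and 12.3 FPKM in Nrn1+/- cells, a ratio of 0.814 (0.769 to 0.861). Npc2, its soluble partner in the lysosome, was at 71.8 FPKM in Nrn1-/- cells and 85.2 FPKM in Nrn1+/- cells, a ratio of 0.843 (0.821 to 0.866). Npc1 shares 511 exonic bases with Rmc1 on the opposite strand, which was at 24.6 FPKM in Nrn1-/- cells and 30.3 FPKM in Nrn1+/- cells.

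Genes of uptake and of sterol handling outside the 33 were taken from a list of 27, of which 23 had a mean of at least 1 FPKM. Their median log2 ratio of 0.04 was close to the 0.02 of all genes, with 15 higher, 8 lower, 2 at least 1.5-fold higher and none at least 1.5-fold lower. After rescaling to a sum of 1000000 the split was 7 higher and 16 lower, with a median of -0.242 against -0.25 over all genes. The largest difference was that of Tmem97, an endoplasmic reticulum protein that binds sterols, regulates NPC1 and is induced by SREBP2. It stood at 48.3 FPKM in Nrn1-/- cells and 20.4 FPKM in Nrn1+/- cells, a ratio of 2.37 (2.21 to 2.54), beyond any of the 33 genes. Scarb1, a lipoprotein receptor that takes up cholesterol esters, was at 20.1 FPKM in Nrn1-/- cells and 11.06 FPKM in Nrn1+/- cells, a ratio of 1.82 (1.70 to 1.96). The third by size was Erlin1, a membrane protein of the endoplasmic reticulum tied to SREBP control, at 9.17 FPKM in Nrn1-/- cells and 5.98 FPKM in Nrn1+/- cells.

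Cell division genes differed far more than the cholesterol genes and in the same direction as the SREBP2 targets. All 12 listed were at least 1.5-fold higher in Nrn1-/- cells, against 7.5% of all genes, at a median log2 ratio of 1.34. They summed to 863 FPKM in Nrn1-/- cells and 335 FPKM in Nrn1+/- cells. Top2a, a topoisomerase of dividing cells, was at 163 FPKM in Nrn1-/- cells and 71.2 FPKM in Nrn1+/- cells. The markers of T cells and regulatory T cells ran the other way, with 7 of 8 lower in Nrn1-/- cells, against 47.7% of all genes. Their median log2 ratio was -0.23. The marker that was higher was Cd44, at 80.5 FPKM in Nrn1-/- cells and 62.4 FPKM in Nrn1+/- cells. None of the 8 was at least 1.5-fold lower as deposited, and 3 were at a sum of 1000000, where 17.6% of all genes were. The part of cell division in the cholesterol gene values was not tested.

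**Figure D4:**
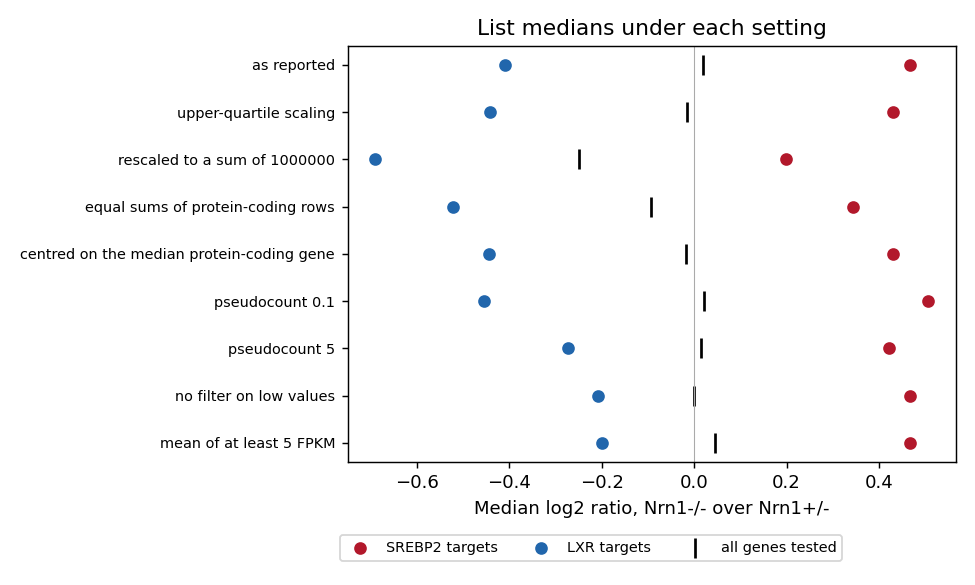
Median log2 ratio, Nrn1-/- over Nrn1+/-, of the SREBP2 targets (red), the LXR targets (blue) and all genes tested (black ticks) as reported and under 8 other settings. The red points lie between 0.20 and 0.51 and the blue points between -0.69 and -0.20, with the ticks between them in every row.

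Near-identical copies touch 4 of the synthesis genes. Besides Acat2 and its neighbours, Idi1 matches the processed pseudogene Gm13502 over 684 bases without a mismatch, which was listed at 3.81 FPKM in Nrn1-/- cells and 2.73 FPKM in Nrn1+/- cells. Fdps matches the pseudogenes Gm3571 and Gm5873, both under 1 FPKM in each library. The labels do not say how reads that fit more than 1 place were counted. Without Acat2, Fdft1, Fdps and Idi1, 6 of the 17 remaining SREBP2 targets were at least 1.5-fold higher and the median log2 ratio was 0.44.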

How the data were processed

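Both libraries come from sorted effector regulatory T cells, grouped by their genotype labels. The deposited values are FPKM per gene, computed by the authors. The headers name no unit, and it was read from the values and from the submitters' processing notes, which list Cuffnorm beside TopHat, Cuffdiff, FastQC and the builds mm10 and GRCm38, with no versions or roles. No source used here states whether libraries were scaled to each other. Per the labels, oligo-dT beads captured messenger RNA and libraries were randomly primed.

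Each file held 46511 rows, and 82 symbols with several rows were summed. Log2 ratios used a pseudocount of 1 FPKM and kept the 12344 genes averaging 1 FPKM or more. Members (31 of 33 passed) and lists were chosen with earlier results of these data known, so the higher synthesis genes are no independent evidence. All members and, per further list, the largest ratios could be named.

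Positions, lengths and overlaps came from GENCODE M21 on GRCm38. FPKM times transcript length less 210 bases, in single-transcript genes of 800 to 6000 bases, lay within 0.1 of whole multiples for 96.7% of 1687 low values in the Nrn1-/- library and 96.7% of 1690 in the Nrn1+/- library, where chance gives 20%. Fragments per member were estimated from the shortest principal transcript, and ratio intervals are exact binomial (Clopper-Pearson) at 95%. Copies were found with minimap2 2.31 (at least 300 bases at 90% identity), and other steps used Python 3.11.15, numpy 2.4.6, pandas 2.3.3, scipy 1.17.1 and matplotlib 3.10.9. The calculation was tested on simulated counts drawn with the same steps, which checks the arithmetic only. Such a test cannot check the choice of transcript length, shared reads or differences between mice. No group test was possible with 1 library each. Alternatives covered 4 scalings, pseudocounts of 0.1 and 5 FPKM, no filter and a mean of at least 5 FPKM.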

Additional observations from a re-analysis of the deposited data

How the results depend on the processing

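No paired analysis was possible because each genotype has 1 library, and none could be left out. For medians, a change is given where it exceeded the typical counting error of a member. Rescaling to a sum of 1000000 left 0 SREBP2 targets at least 1.5-fold higher, against 3.27% of all genes. It brought the median log2 ratio to 0.199 for SREBP2 targets, 0.199 for synthesis enzymes (0.443 as reported) and -0.69 for LXR targets. Equal sums of protein-coding values, which moved all genes by a median of -0.12, gave 0.343, 0.334 and -0.521. These shifts follow from the scaling itself. A pseudocount of 5 FPKM, which shrinks ratios of low genes, gave 5 SREBP2 targets, against 4.51% of all genes. The medians were then 0.286 for synthesis enzymes and -0.272 for LXR targets. Without the filter the LXR median was -0.208 and the distance between the lists 0.674, and at a mean of at least 5 FPKM they were -0.199 and 0.665, since the LXR targets counted change. Acat2, Idi1, Fdps, Sqle and Cyp51 stayed at least 1.5-fold higher under the 7 alternatives other than the sum of 1000000. Of 249 member values under the 8 alternatives, 182 moved by less than their counting error and 67 by more. The 182 include values under changes of the filter alone, which leave a gene's own ratio unchanged by construction. The log2 ratio of 5 members changed sign in some setting: Mvk, Msmo1, Insig2, Srebf1 and Nr1h3. No gene past 1.5-fold did so, but the scalings shift ratios by too little for that to occur. Setting members with copies aside was chosen after seeing the data.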

Other observations

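Enzymes that use the isoprenoids made by this pathway stood slightly higher in the Nrn1-/- library, none by as much as 1.5-fold. All 13 had a mean of at least 1 FPKM and 11 were higher, against 52.3% of all genes tested. Their median log2 ratio was 0.19, against 0.02 over all genes. After rescaling to a sum of 1000000, 5 were higher and 8 lower, with a median of -0.081 against -0.25 over all genes. The largest log2 ratio, with the pseudocount, was that of Rabggtb, a subunit of the enzyme that prenylates Rab proteins, at 98.7 FPKM in Nrn1-/- cells and 72.5 FPKM in Nrn1+/- cells. Next on that scale came Nus1 (25.8 FPKM in Nrn1-/- cells and 20.3 FPKM in Nrn1+/- cells) and Pdss1 (12.2 and 9.66 FPKM), which build the long isoprenoid chains of dolichol and ubiquinone.

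Among receptors of lipoprotein uptake outside the list, Lrp8 was at 14.8 FPKM in Nrn1-/- cells and 9.85 FPKM in Nrn1+/- cells. Vldlr was under 1 FPKM in both, at 0.0479 FPKM in Nrn1-/- cells and 0.425 FPKM in Nrn1+/- cells. Rxra, a partner of LXR, was at 29.1 FPKM in Nrn1-/- cells and 20.05 FPKM in Nrn1+/- cells, while Rxrb was at 43.7 and 42.6 FPKM. Arl4c, another LXR-induced gene, was at 18.1 FPKM in Nrn1-/- cells and 23.2 FPKM in Nrn1+/- cells, a ratio of 0.779 (0.734 to 0.825). Lpcat3, also LXR-induced, was at 22.5 FPKM in Nrn1-/- cells and 18.01 FPKM in Nrn1+/- cells, a ratio of 1.25 (1.17 to 1.33), so these 2 LXR targets outside the list lay on opposite sides of 1. The genes of this paragraph were picked from their list after their values were seen.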
